A study of Mus musculus with 20 samples.

Results

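The effect of selenium on gene expression in splenic natural killer (NK) cells was taken as the difference between the 10 arrays of mice that received selenium and 9 arrays of mice that did not, which together are 19 of the 20 arrays of the series. The comparison was chosen by treatment alone: selenium and ptaquiloside plus selenium on one side, control and ptaquiloside on the other, with adjustment for ptaquiloside and for the mouse number. The array of ptaquiloside mouse 4 was left out because it was dim.

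The animals were male C57BL/6 mice in 4 groups of 5, gavaged daily for 14 days, and every mouse had its own array. Controls received water, the ptaquiloside group 5.3 mg/kg of that compound, the selenium group 1.3 mg/kg of selenium, and the last group the 2 doses together. NK cells were not bound themselves but were left after other spleen cells had been removed on magnetic columns, so RNA of remaining cells of other types also entered the measurement. On each of the 5 slides lay the 4 arrays that carry the same mouse number, 1 from each treatment, and a treatment was always at the same place on the slide. Treatment and place on the slide therefore cannot be told apart. The comparison asks what selenium did in NK cells irrespective of ptaquiloside, the carcinogenic glucoside of bracken fern.

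Selenium acts in cells largely as selenocysteine, the amino acid built into selenoproteins such as the glutathione peroxidases and thioredoxin reductases, which remove peroxides and keep thiols reduced. Selenocysteine is inserted at a recoded stop codon with the help of a dedicated elongation factor and a protein that binds the selenoprotein messenger RNA. NK cells are innate lymphocytes that kill infected or transformed cells and secrete cytokines.

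On the 19 arrays the 75th percentile of the processed signal ran from 45.5 to 133 scanner units, and 51.7% to 60.8% of spots were well above background. The dimmest of the 19 was ptaquiloside and selenium mouse 5, at 45.5. On the array left out the same measures were 10.5 units and 36.3%, and it correlated with the other arrays at 0.628 to 0.757 across probes, against 0.936 to 0.990 among the 19. The NK markers Ncr1, Klrb1c and Eomes were well above background on 19 of 19 arrays. So were the B cell markers Ms4a1 and Cd79a, the T cell markers Cd3e, Cd3d and Cd3g, the neutrophil markers Mpo and Elane, and the macrophage markers Csf1r, Adgre1 and C1qa. Precision is limited by the number of arrays.

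With selenium, cell cycle genes, neutrophil granule genes and several oligoadenylate synthetases lay higher. Most macrophage markers, with Tnf and Hmox1, lay lower, but no single gene passed the test. The list median of the oligoadenylate synthetases was 0.97 in mice without ptaquiloside and -0.07 in mice with it. For macrophage markers these medians were -0.38 and -0.03. Across all genes, the differences without and with ptaquiloside had a Pearson r of -0.03. The limma fit called 0 of 17464 genes at an adjusted p under 0.05 (0% of those tested), and the lowest adjusted p was 0.654. Without adjustment, 1172 genes (6.71%) had a p under 0.05, of which 656 (3.76% of all genes tested) were higher and 516 (2.95%) lower with selenium. The methods' t-test on unscaled values also called 0 genes, with 296 at an unadjusted p under 0.05. The median log2 difference of all genes was 0.01, the median standard error 0.15, and 52.3% of genes were higher. The unadjusted count was 653 with all 20 arrays.

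Several of the genes with the smallest p on the higher side act in chromosome duplication or segregation: Kifc5b and Kifc1, motor proteins of the spindle, Chaf1a, a subunit of the chromatin assembly factor that loads histones behind the replication fork and Ticrr, which helps origins of replication fire. Kifc5b lay at -0.57, 0.34 and 0.86 (lowest, median and highest of 10 arrays) with selenium and at -1.58, -0.60 and 0.11 without it, on the log2 scale relative to each array's 75th percentile, which is the scale of every level given here. All 10 arrays with selenium were above the median of the 9 without, and the groups overlapped. The log2 difference was 0.80 ± 0.18 (SE, 10 against 9 arrays), or 1.74-fold, and it had the same sign in 9 of 9 pairs of mice on a slide. The Kifc1 probe gave 0.74 ± 0.19. The Kifc5b and Kifc1 probes share 2 listed accessions, among them the accession that names the Kifc1 probe, so these 2 values cannot be assigned to separate genes.

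Chaf1a lay at -0.69, 0.36 and 1.11 with selenium and at -0.63, -0.35 and 0.22 without it. The lowest array with selenium, that of selenium mouse 5, was below all 9 without, while 9 of 10 were above their median. Its difference was 0.71 ± 0.17, or 1.63-fold, higher in 8 of 9 pairs. Ticrr, at 0.97 ± 0.24, was measured close to the background: its probe was well above it on 7 of 10 arrays with selenium and on 3 of 9 without.

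The 60-base probes of 5 genes with small p are shown because the values of these genes open the account of each direction; they are printed as the array design gives them, with mm9 positions of Kifc5b at chr17:27062844-27063223, Oas1a at chr5:121348348-121348407, Chaf1a at chr17:56206969-56207028, Clec4d at chr6:123224788-123224847 and Inhba at chr13:16118634-16118693. The Kifc5b probe spans more genome than its own length.
Kifc5b: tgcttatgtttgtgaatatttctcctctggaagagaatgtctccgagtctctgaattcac
Oas1a: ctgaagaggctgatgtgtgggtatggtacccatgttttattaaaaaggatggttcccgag
Chaf1a: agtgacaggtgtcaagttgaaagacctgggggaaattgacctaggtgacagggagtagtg
Clec4d: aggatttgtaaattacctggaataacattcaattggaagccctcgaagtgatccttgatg
Inhba: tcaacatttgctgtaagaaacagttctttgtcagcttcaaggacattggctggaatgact

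The other genes named on the higher side were of mixed kind. Oas1a and Oas1f belong to the oligoadenylate synthetase family, whose active enzymes are induced by interferon and activate RNase L against viral RNA. Cchcr1 (0.54 ± 0.13) and Crocc (0.42 ± 0.10) encode coiled-coil proteins of the centrosome and ciliary rootlet. Ampd2, an AMP deaminase of purine metabolism, lay at 1.66, 1.88 and 2.42 with selenium and at 1.22, 1.52 and 2.01 without, with a difference of 0.42 ± 0.10 and 9 of 9 pairs higher. Tyro3, a receptor tyrosine kinase, showed the least overlap of the genes named in this direction. Its arrays with selenium lay at -2.07, -1.87 and -1.46 and those without at -2.82, -2.31 and -2.07. The Tyro3 difference of 0.52 ± 0.13 consisted of 0.82 ± 0.14 without ptaquiloside and 0.17 ± 0.15 with it. Lrg1, a secreted leucine-rich glycoprotein, gave 0.81 ± 0.21. The adjusted p of the limma fit was 0.654 for each gene named here from the 12 with the smallest p in either direction.

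**Figure D1:**
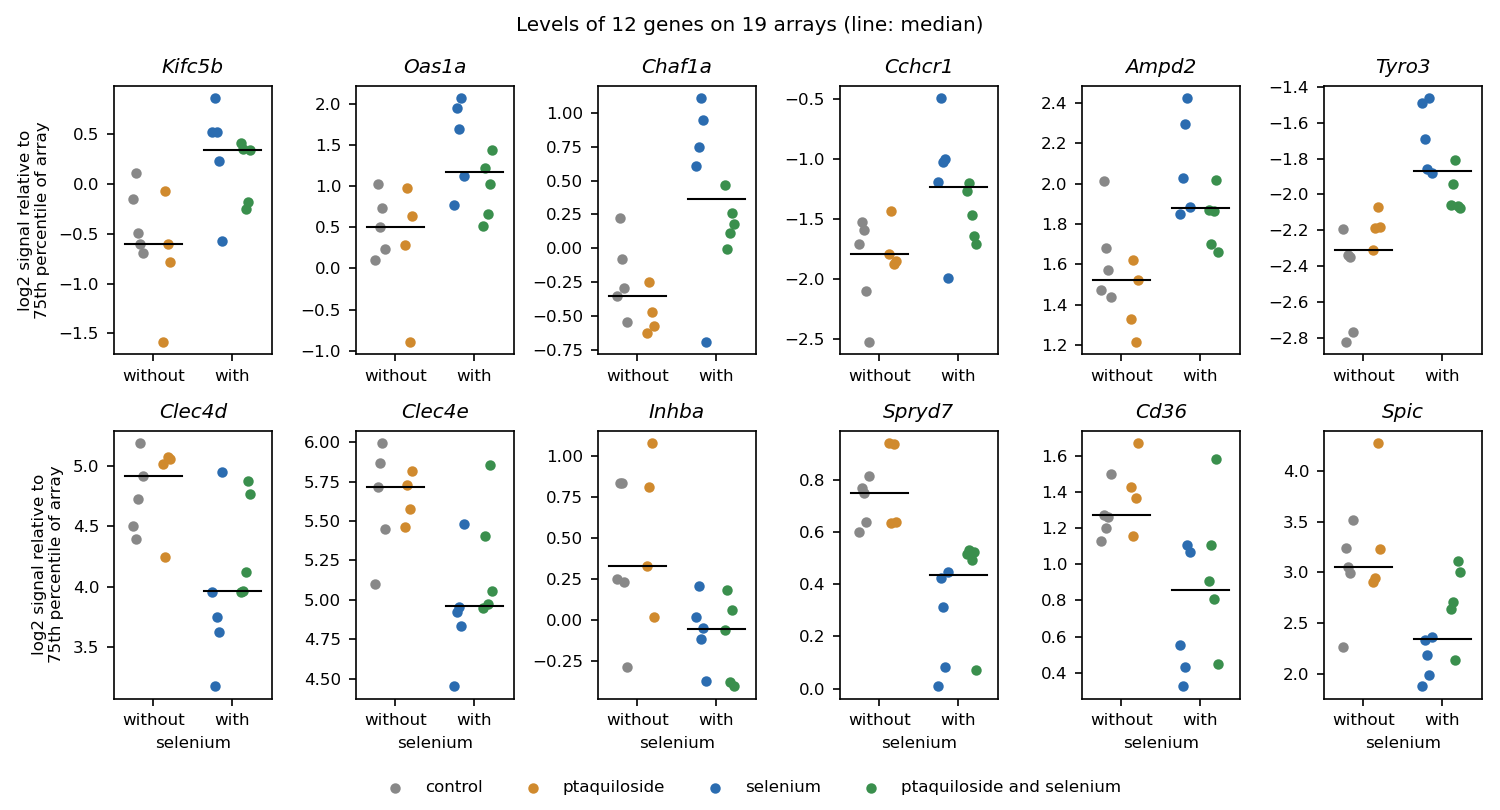
Log2 signal relative to the 75th percentile of each array for 6 genes higher (top row) and 6 genes lower (bottom row) with selenium, 1 point per array coloured by treatment group, with 9 arrays without and 10 with selenium and a line at the median. For Spryd7 the groups do not overlap, for Tyro3 they meet near -2.07, and for the other 10 genes their ranges overlap. The genes shown were picked for small p, and the share of all genes without overlap was not counted.

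On the lower side, Clec4d had the smallest p. Clec4d and Clec4e are neighbouring C-type lectins by which myeloid cells sense microbial glycolipids. Clec4d lay at 3.18, 3.96 and 4.95 with selenium and at 4.25, 4.92 and 5.19 without it. Only 1 of the 10 arrays with selenium was above the median of those without, and the groups overlapped. The difference was -0.73 ± 0.15, so that the level without selenium was 1.65-fold higher, and 1 of 9 pairs went the other way. Clec4e lay at 4.45, 4.96 and 5.86 against 5.10, 5.72 and 6.00 and gave -0.60 ± 0.13. Cd36, a scavenger receptor, gave -0.55 ± 0.13 and was lower in 9 of 9 pairs. Spic, the transcription factor of red pulp macrophages, lay at 1.87, 2.34 and 3.12 with selenium against 2.26, 3.05 and 4.28 without, a difference of -0.76 ± 0.18 that was also lower in 9 of 9 pairs.

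Inhba, which encodes a subunit of activin, lay at -0.41, -0.06 and 0.20 with selenium and at -0.29, 0.33 and 1.08 without it. None of the 10 arrays with selenium exceeded the median of the others. Its difference was -0.55 ± 0.12, with 0 of 9 pairs higher. Spryd7, a small SPRY domain protein, lay at 0.01, 0.44 and 0.53 with selenium and 0.60, 0.75 and 0.94 without, and it gave -0.41 ± 0.10. Its groups did not overlap, but it was picked for its small p. The share of all genes without overlap was not counted. Zc3h12c, a zinc finger protein of the Regnase family, gave -0.79 ± 0.18, Sowahc -0.77 ± 0.18, Gpr137b -0.40 ± 0.09 and Renbp -0.40 ± 0.10. Dpys (-0.60 ± 0.14) and Kcnj2 (-1.03 ± 0.25) were dim, with probes well above background on 2 and 1 of 10 arrays with selenium and on 9 and 5 of 9 without.

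Genes of DNA replication and S phase were higher as a group. Of 35 tested members 34 were higher with selenium and 26 reached an unadjusted p under 0.05 in that direction, against 3.76% of all genes, and 0 were called after adjustment. Their median log2 difference was 0.38, against 0.01 over all genes. It was 0.54 in mice without ptaquiloside and 0.20 in mice with it. Mcm3 and Mcm5, subunits of the helicase that unwinds DNA at the fork, gave 0.55 ± 0.15 and 0.44 ± 0.14, while 2 other subunits, Mcm2 and Mcm4, gave 0.15 ± 0.14 and 0.21 ± 0.11. Mcm3 lay at 2.58, 3.41 and 4.17 with selenium and at 2.48, 2.92 and 3.64 without, so the ranges overlapped widely. Pola1, the catalytic subunit of the priming polymerase, gave 0.59 ± 0.15. The count of 26 was 17 with median centring of each array, 17 with the normexp background correction, 15 without control mouse 4, 17 without selenium mouse 3, and 14, 17 and 15 without slides 1, 3 and 4. With normexp the median was 0.23.

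Genes of mitosis and of the G2 and M phases were also higher as a group. Of 32 tested members 29 were higher and 26 reached an unadjusted p under 0.05, against 3.76% of all genes, with a median of 0.57. The median was 0.62 without ptaquiloside and 0.55 with it. Mki67, the proliferation marker, lay at 1.72, 3.51 and 4.06 with selenium and at 1.72, 2.35 and 3.46 without it. Of the arrays with selenium 9 of 10 exceeded the median of the others, although both groups had the same lowest value. The Mki67 difference was 0.82 ± 0.24, or 1.77-fold, and was higher in 7 of 9 pairs. Top2a, the topoisomerase that untangles sister chromatids, gave 0.84 ± 0.23, and Foxm1, a transcription factor of the G2 phase, gave 0.56 ± 0.14 with 9 of 9 pairs higher. Cdk1 and Ccnb1, the kinase and cyclin that drive entry into mitosis, gave 0.65 ± 0.29 and 0.56 ± 0.25. The count of 26 was 17 with all 20 arrays, 16 without slide 1 and 17 without slide 3, and with normexp the median was 0.26.

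**Figure D2:**
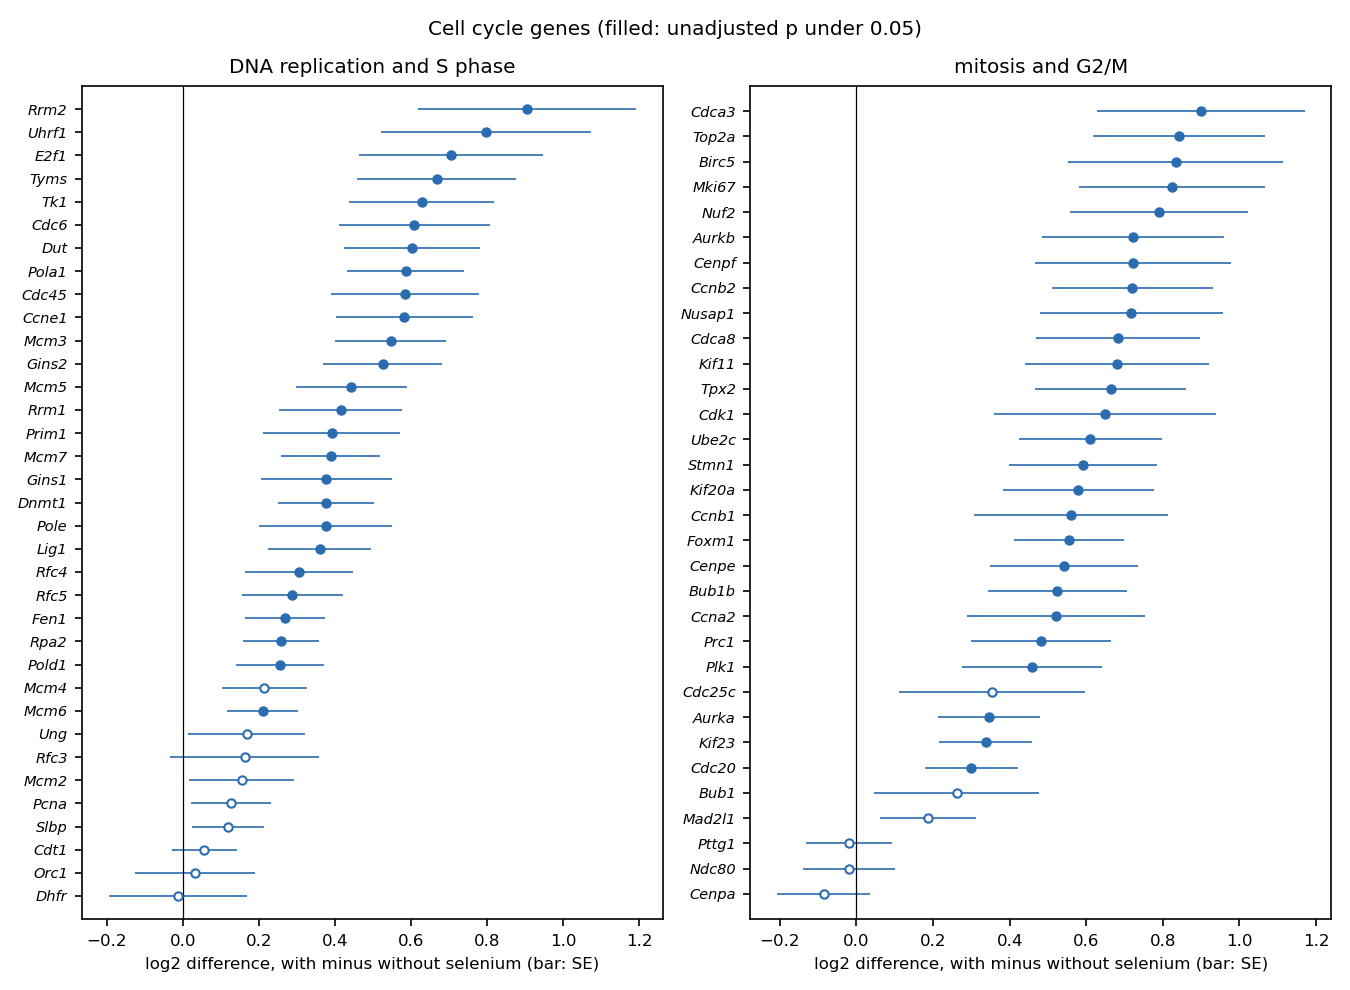
Log2 difference, with minus without selenium, of the 35 tested genes of DNA replication and S phase and the 32 of mitosis (bars, standard error; filled points, unadjusted p under 0.05; 10 against 9 arrays). In the first list 34 and in the second 29 points lie to the right of 0.

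Both cell cycle lists had the same highest and lowest pairs in mice without ptaquiloside. In mice with it both were highest in pair 1, but the S phase list was lowest in pair 5 and the mitosis list in pair 2. Without ptaquiloside, the median of the S phase list in pairs 3 and 4 was 0.88 and 0.89, in pairs 1 and 2 it was 0.41 and 0.30, and in pair 5 it was -0.16. The mitosis list gave 1.09 and 1.43 in pairs 3 and 4 and -0.34 in pair 5. With ptaquiloside the S phase medians were 0.63, 0.12, 0.16 and 0.07 in pairs 1, 2, 3 and 5, and the mitosis medians 1.08, -0.10, 0.36 and 0.84. The S phase list was thus higher in 8 of 9 pairs and the mitosis list in 7 of 9.

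Markers of neutrophils and their precursors lay higher in the same pairs. Of 17 tested members 14 were higher with selenium, and the median was 0.63. Of these 10 had an unadjusted p under 0.05, against 3.76% of all genes. Mpo and Elane, the myeloperoxidase and elastase that precursors pack into primary granules, gave 0.90 ± 0.25 and 0.94 ± 0.26. Mpo lay at 4.86, 6.14 and 7.41 with selenium and at 4.64, 5.04 and 6.18 without, with 9 of 10 arrays above the median of the others. S100a8 (0.71 ± 0.31), S100a9 (0.62 ± 0.28), Camp (0.77 ± 0.32) and Ltf (0.67 ± 0.30), proteins of the cytosol and secondary granules, were in the same direction. Csf3r, the receptor for granulocyte colony-stimulating factor, was at -0.48, and was the member with an unadjusted p under 0.05 in the other direction. The list's level, the median over members of the signal minus each gene's mean, lay at -0.86, 0.08 and 1.49 (lowest, median and highest) with selenium, and at -0.9997, -0.23 and 0.23 without. By pair it was 2.04 and 1.21 in pairs 3 and 4 without ptaquiloside and -0.42 in pair 5, the pairs that were also highest and lowest for the cell cycle lists. The count of 10 was 4 without control mouse 3 or 4, ptaquiloside mouse 5, selenium mouse 3, ptaquiloside and selenium mouse 1, slide 3 or slide 4. It was 5 or 6 without selenium mouse 2 or 4, ptaquiloside mouse 1, ptaquiloside and selenium mouse 5, slide 1 or slide 2.

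Markers of erythroid cells were higher in 11 of 13 tested members, with a median of 0.37. In that direction 1 member had an unadjusted p under 0.05, against 3.76% of all genes. The median was 0.09 with normexp, 0.18 without slide 1, 0.22 without control mouse 4, ptaquiloside mouse 2, slide 3 or slide 4, and 0.24 without ptaquiloside and selenium mouse 3. The member with that p was Ermap, a membrane protein of red cell precursors, at 0.72 ± 0.30, followed by the erythropoietin receptor Epor at 0.48 ± 0.23. The erythroid factor Klf1 and the anion exchanger Slc4a1 gave 0.50 ± 0.38 and 0.37 ± 0.38. The haemoglobin gene Hba-a1 and the haem synthesis enzyme Alas2 gave -0.13 ± 0.47 and -0.06 ± 0.61. The list level ran from -0.64 to 0.71 with selenium and from -0.62 to 0.82 without. The part of neutrophil and erythroid cells in the cell cycle values was not tested, and in a bulk sample more cells of a type and more RNA per cell cannot be told apart.

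**Figure D3:**
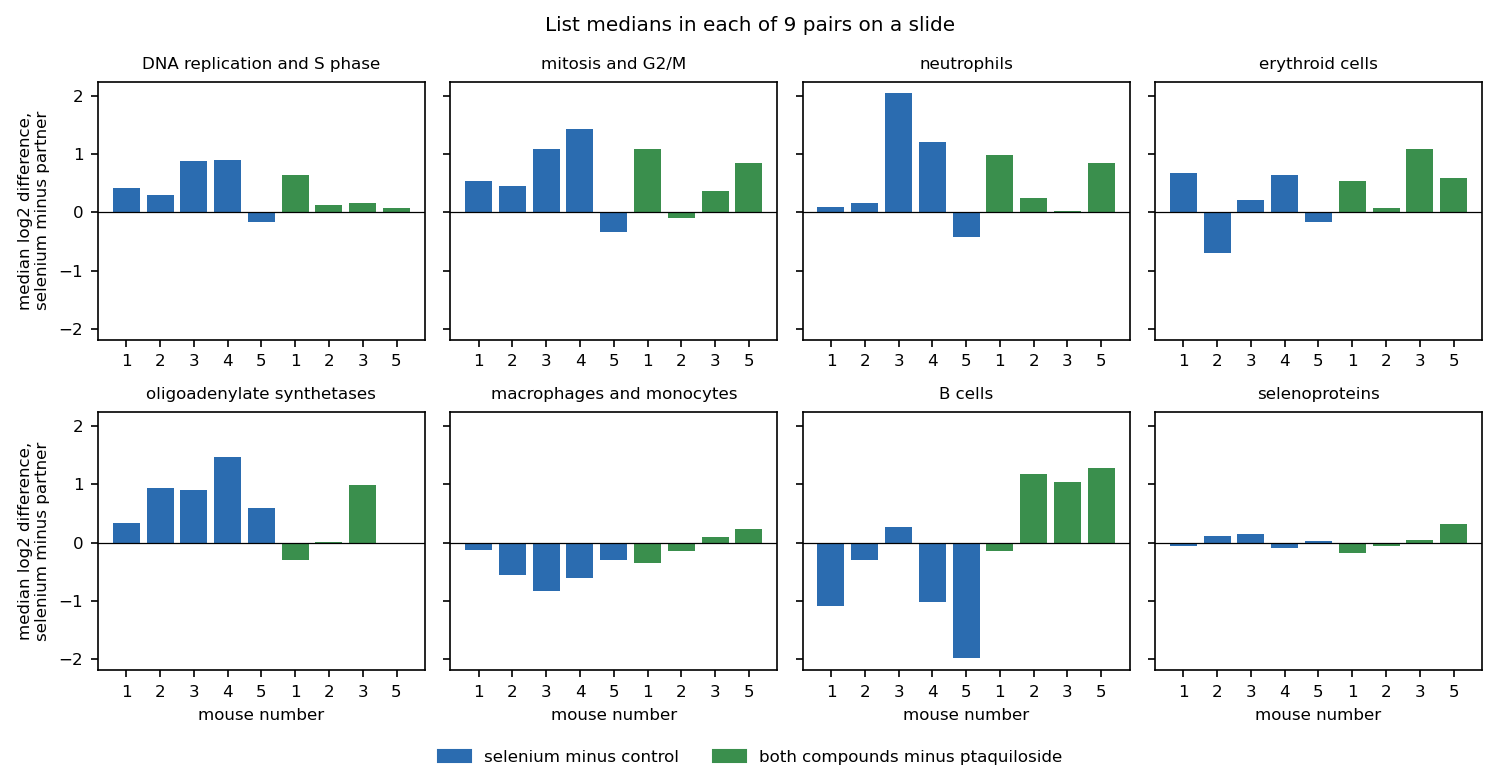
Median log2 difference of 8 gene lists in each pair of mice on a slide, selenium minus control (blue, 5 pairs) and both compounds minus ptaquiloside (green, 4 pairs). Both cell cycle lists and the neutrophil list are highest in blue pairs 3 and 4 and below 0 in blue pair 5, and selenoprotein medians stay between -0.18 and 0.32.

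The promoters of 3 genes are shown as examples from the S phase, mitosis and oligoadenylate synthetase lists. They are the 250 bases before the transcription start in RefSeq (GRCm38.p6), given in the direction of transcription: Mcm5 at chr8:75109259-75109508 on the plus strand, Top2a at chr11:99024190-99024439 on the minus strand and Oas1a at chr5:120907526-120907775 on the minus strand. Capitals mark matches in either orientation to TTTCCCGC, TTTGGCGC or TTTCGCGC (E2F) in Mcm5, to TTTGAA (the cell cycle homology region) or CCAAT (the CCAAT box) in Top2a, and to the interferon-stimulated response element, spelled here as GAAA, any 2 bases and GAAA, in Oas1a.
Mcm5: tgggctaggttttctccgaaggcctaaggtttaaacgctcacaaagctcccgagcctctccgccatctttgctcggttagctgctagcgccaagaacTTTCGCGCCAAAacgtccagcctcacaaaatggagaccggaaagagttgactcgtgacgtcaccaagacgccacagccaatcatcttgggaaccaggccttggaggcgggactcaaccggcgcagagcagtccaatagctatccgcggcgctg
Top2a: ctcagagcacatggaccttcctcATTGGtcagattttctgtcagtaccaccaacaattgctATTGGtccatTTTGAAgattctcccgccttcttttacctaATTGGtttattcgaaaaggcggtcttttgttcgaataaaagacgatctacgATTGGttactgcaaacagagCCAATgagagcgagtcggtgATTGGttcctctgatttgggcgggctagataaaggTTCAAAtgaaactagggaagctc
Oas1a: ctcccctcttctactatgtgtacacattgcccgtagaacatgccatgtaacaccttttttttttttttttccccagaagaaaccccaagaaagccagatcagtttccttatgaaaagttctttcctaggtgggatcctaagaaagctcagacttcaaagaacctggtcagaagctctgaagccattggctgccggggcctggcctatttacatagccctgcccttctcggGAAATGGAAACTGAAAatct

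In Mcm5 the capitals hold 1 match to TTTCGCGC and 1 to TTTGGCGC in reverse, which overlap, and in Oas1a they hold 2 overlapping matches that begin 20 and 14 bases before the start. Top2a has 2 matches to TTTGAA and 6 to CCAAT. Over windows of 300 bases, which add 50 bases after the start, at least 1 of the 3 E2F spellings occurred in 13 of 30 S phase members with a promoter in the table (43.3%), against 3.69% of the 10961 tested genes with one and 2.12% of all 27025. TTTGAA occurred in 17 of 25 mitosis members (68.0%), against 15.1% of tested genes and 20.2% of all, and CCAAT in 19 of 25 (76.0%), against 42.4% and 41.1%. The interferon-stimulated response element occurred in 10 of 20 members of the interferon-stimulated list, against 3.79% and 3.99%. In all, 15 motifs were searched in 8 lists and those printed were chosen after their shares were seen. The shares count every tested member of a list with a promoter, whatever its selenium difference. They describe how the lists are composed and say nothing about an effect of selenium. A match is a description of letters and not a binding site.

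The oligoadenylate synthetases were mostly higher with selenium, with a list median of 0.97 in mice without ptaquiloside and -0.07 in mice with it. Of 7 tested members of the list 5 were higher, with a median of 0.43. Of these 3 reached an unadjusted p under 0.05 (Oas1a, Oas2 and Oas3), against 3.76% of all genes. Oas1a lay at 0.52, 1.17 and 2.07 with selenium and at -0.89, 0.50 and 1.02 without it. All 10 arrays with selenium exceeded the median of the others, and the lowest of the others, ptaquiloside mouse 3, lay well apart. The Oas1a difference was 0.84 ± 0.19, or 1.79-fold, made of 1.00 without ptaquiloside and 0.65 with it. Oas2 gave 0.85 ± 0.29 (9 of 9 pairs higher), Oas3 0.76 ± 0.26 and Oas1f, which is not in the list, 0.73 ± 0.19. Oasl1, a related protein that lacks the enzyme activity, gave 0.43 ± 0.32 without ptaquiloside and -0.90 ± 0.35 with it. The count of 3 was 1 without slide 3, and the median was 0.28 with normexp and 0.66 without slide 1.

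For other interferon-stimulated genes the list median had opposite signs in mice without and with ptaquiloside, called the 2 arms here; the list's difference between the arms was not tested. The median of the 31 tested members was 0.42 without ptaquiloside, where 30 were higher with selenium, and -0.08 with ptaquiloside, where 8 were. Over all genes the median was 0.013 without ptaquiloside and 0.0044 with it. The share of all genes higher within each arm was not counted. Over both arms the list median was 0.15, with 3 members higher at an unadjusted p under 0.05, against 3.76% of all genes. Isg15, a ubiquitin-like protein, gave 0.43 ± 0.28 in the first arm and -0.60 ± 0.30 in the second, and limma's adjusted p for that gene's difference between the arms was 0.971. Ifit1, Ifit2 and Ifit3, which bind foreign RNA, gave 0.31, 0.30 and 0.78 in the first arm and -0.99, -1.20 and -0.27 in the second. In the second arm, ptaquiloside mouse 3 stood apart for Ifit1 (level 0.22, nearest array without selenium -1.81) and Ifit2 (-1.17, nearest -2.85). Without that mouse the differences over both arms were 0.0043 for Ifit1 and -0.097 for Ifit2. Trim30a (0.51 ± 0.18) and Phf11d (0.39 ± 0.16) had the smallest p over both arms and were higher in each. The count of 3 ranged from 1, without control mouse 2 or 4, ptaquiloside mouse 3, selenium mouse 2 or 3, or slide 2 or 3, to 9 without ptaquiloside mouse 1. It was 7 without ptaquiloside mouse 5, slide 1 or slide 5, and 5 without selenium mouse 5, without ptaquiloside and selenium mouse 4 or with all 20 arrays.

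Heat shock proteins and chaperonins were higher by small amounts in 22 of 25 members, 6 of them at an unadjusted p under 0.05 against 3.76% of all genes, with a median of 0.14 (0.43 with all 20 arrays). The constitutive chaperones Hspa8 and Hsp90ab1 gave 0.25 ± 0.09 and 0.25 ± 0.08, and the mitochondrial Hspd1 gave 0.31 ± 0.10. Stip1, which links both chaperone classes, lay at 1.52, 2.12 and 2.32 with selenium and 1.16, 1.64 and 2.05 without, with a difference of 0.38 ± 0.10 and 9 of 9 pairs higher. Fkbp4, a co-chaperone of steroid receptors, gave 0.47 ± 0.14, and Hsp90aa1 0.14 ± 0.11. The count of 6 was 10 without slide 5 and 13 with array weights.

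Selenoproteins, the direct products of selenium use, lay on both sides of 0. Of 21 tested members 9 were higher and 12 lower with selenium, with a median of -0.02. Of the lower members 1 had an unadjusted p under 0.05, against 2.95% of all genes. Gpx1, the cytosolic glutathione peroxidase whose messenger RNA is known to depend on selenium supply, lay at 5.45, 5.75 and 6.30 with selenium and 4.93, 5.83 and 6.50 without. Its 10 arrays lay within the range of the other 9, and the difference was 0.11 ± 0.12. Gpx4, which reduces lipid peroxides in membranes, gave 0.13 ± 0.12. Txnrd1, the cytosolic thioredoxin reductase, was the member with the smallest p, at 3.70, 4.09 and 4.37 with selenium against 4.04, 4.20 and 4.81 without. Its difference was -0.28 ± 0.12, with limma's adjusted p at 0.705 and 7 of 9 pairs lower. Selenow, a small selenoprotein of muscle and immune cells, gave 0.23 ± 0.11 and was higher in 8 of 9 pairs.

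Genes that handle selenium or insert selenocysteine also stayed near 0. Of 12 tested members 8 were higher, and the median was 0.06. Of the higher members 1 had an unadjusted p under 0.05, against 3.76% of all genes. The binding protein Secisbp2, the elongation factor Eefsec, the synthase Sepsecs and the kinase Pstk gave -0.07 ± 0.15, 0.14 ± 0.12, 0.06 ± 0.12 and 0.06 ± 0.08. The selenium-binding proteins Selenbp1 and Selenbp2 gave 0.30 ± 0.14 and 0.26 ± 0.14; they are close paralogs whose probes may share signal.

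The antioxidant genes under the transcription factor NRF2 went both ways, 13 of 31 higher and 18 lower, with a median of -0.01. In each direction 4 members had an unadjusted p under 0.05, against 3.76% of all genes higher and 2.95% lower. Hmox1, the haem oxygenase, lay at 0.60, 2.06 and 3.53 with selenium and at 1.47, 2.84 and 5.14 without it. Only 1 of 10 arrays with selenium was above the median of the others. The difference was -1.01 ± 0.36, or 2.01-fold, lower in 8 of 9 pairs, with limma's adjusted p at 0.674. It ranged from -1.30 without slide 5 to -0.58 without slide 3. Ftl1, the ferritin light chain, gave -0.44 ± 0.15. Keap1, the adaptor that targets NRF2 for degradation, gave 0.37 ± 0.12 with 9 of 9 pairs higher, and the quinone reductase Nqo1 gave 0.60 ± 0.23, with 1.06 ± 0.27 in the arm without ptaquiloside and 0.06 ± 0.29 in the arm with it. Nfe2l2, which encodes NRF2, and Gclm, a subunit of the enzyme that starts glutathione synthesis, gave -0.07 ± 0.23 and 0.15 ± 0.20. The count of 4 higher was 1 without slide 3 and 2 without slide 1, slide 4 or selenium mouse 3. The count of 4 lower was 1 with all 20 arrays and 2 without slide 1, control mouse 2 or 4, ptaquiloside mouse 1, selenium mouse 4, or ptaquiloside and selenium mouse 1 or 2.

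**Figure D4:**
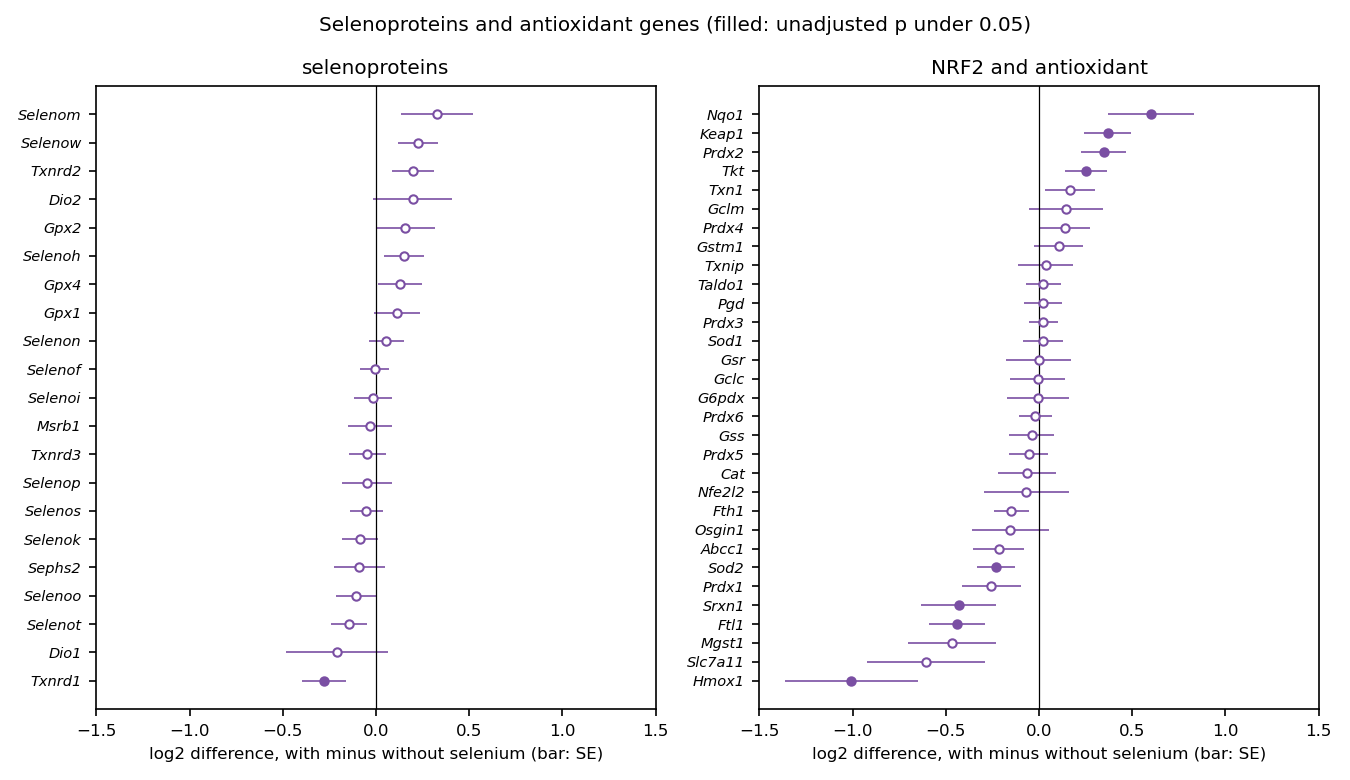
Log2 difference, with minus without selenium, of 21 selenoprotein genes and 31 antioxidant genes (bars, standard error; filled points, unadjusted p under 0.05; 10 against 9 arrays). The selenoproteins lie on both sides of 0 with Txnrd1 lowest at -0.28, and the antioxidant genes run from Hmox1 at -1.01 to Nqo1 at 0.60.

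Mt1 and Mt2, the metallothioneins, which bind zinc and whose protein the study also measured, differed by less than their standard errors over both arms. Mt1 lay at 2.67, 3.73 and 6.13 with selenium and at 2.59, 3.98 and 5.67 without, with a difference of -0.11 ± 0.27, and Mt2 gave 0.04 ± 0.28. Their values had opposite signs in the arms: Mt1 gave 0.36 ± 0.34 without ptaquiloside and -0.65 ± 0.37 with it, and Mt2 0.59 ± 0.33 and -0.60 ± 0.36. Limma's adjusted p for the difference between the arms was 0.971 for each. Mt3 and Mt4 gave -0.03 ± 0.13 and -0.10 ± 0.17. The zinc exporter Slc30a1 had the smallest p of the 7 tested genes of the list, at -0.36 ± 0.14, and the zinc sensor Mtf1 gave -0.08 ± 0.09.

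Macrophage and monocyte markers were lower in 16 of 20 members, 5 of them at an unadjusted p under 0.05 against 2.95% of all genes, with a median of -0.20. Beside Spic, the members with the smallest p included Mpeg1, a pore-forming protein of phagocytes, at -0.51 ± 0.18. Cd68, a lysosomal protein of macrophages, lay at 1.07, 2.31 and 3.23 with selenium against 2.44, 2.93 and 3.27 without, a difference of -0.58 ± 0.24. The receptor Csf1r, the lysozyme Lyz2 and the surface marker Adgre1 gave -0.25 ± 0.21, -0.20 ± 0.15 and -0.02 ± 0.18. The list level ran from -0.63 to 0.54 with selenium and from -0.38 to 0.56 without, and the median difference was -0.38 without ptaquiloside and -0.03 with it. Over both arms it was -0.07 with normexp and -0.13 without control mouse 3. The count of 5 was 2 with all 20 arrays or without slide 2 and 3 without control mouse 4, selenium mouse 2, selenium mouse 3 or slide 1.

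Among cytokine genes Tnf and Spp1 had the smallest p, and both were lower. The median of the cytokine list was -0.13 over both arms. It was 0.02 without ptaquiloside (9 of 16 members higher) and -0.26 with it (4 of 16). Of 16 tested cytokines and chemokines of NK cells 10 were lower, 4 at an unadjusted p under 0.05, against 2.95% of all genes. At that level 1 was higher, against 3.76% of all genes. Tnf, the inflammatory cytokine, lay at 1.88, 2.53 and 3.71 with selenium and at 2.90, 3.80 and 6.08 without it. None of the 10 arrays with selenium exceeded the median of the others, and ptaquiloside mouse 3 was highest by far. The Tnf difference was -1.15 ± 0.32, or 2.23-fold, lower in 8 of 9 pairs, with limma's adjusted p at 0.654. It ranged from -1.34 without selenium mouse 5 to -0.69 without slide 3. Spp1, which encodes osteopontin, gave -0.91 ± 0.24 and was lower in 9 of 9 pairs. Ifng, the main cytokine of NK cells, gave 0.20 ± 0.14, and the chemokines Ccl3, Ccl4 and Ccl5 gave -0.21 ± 0.14, -0.12 ± 0.21 and 0.02 ± 0.11. With all 20 arrays the count of 4 was 0. The part of macrophages and monocytes, which also express Tnf and Spp1, was not tested.

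Immediate early genes, which respond within minutes to stimulation or handling of cells, were lower in 19 of 24 members, with a median of -0.15. Of these 5 had an unadjusted p under 0.05, against 2.95% of all genes. The transcription factors Fos, Jun and Egr2 gave -0.47 ± 0.18, -0.40 ± 0.19 and -0.57 ± 0.18, and the phosphatase Dusp1 gave -0.42 ± 0.15. Fosb and Junb gave -0.24 ± 0.30 and 0.15 ± 0.14. Fos lay at 1.92, 2.69 and 3.62 with selenium and at 1.77, 3.37 and 3.87 without, so the ranges coincided for the most part. With all 20 arrays the list median was 0.05, Fos was at 0.09 and Dusp1 at 0.01. The median was -0.05 without slide 3, -0.08 without ptaquiloside mouse 3, -0.25 without control mouse 4 or slide 4 and -0.23 without slide 5. The count of 5 was 0 without slide 3, 1 with all 20 arrays, 2 without slide 1 or without the replicate block and 3 without slide 2, selenium mouse 3, or ptaquiloside and selenium mouse 3.

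Receptors that define NK cells lay close to the median of all genes. Of 25 tested members 15 were higher, the median was 0.04, and 0 had an unadjusted p under 0.05, against 6.71% of all genes. Klrb1c, the NK1.1 antigen, lay at 3.87, 4.48 and 5.17 with selenium and at 3.92, 4.11 and 4.96 without, with a difference of 0.13 ± 0.11. Ncr1 gave -2.28e-05 ± 0.19, the activating receptor Klrk1 0.11 ± 0.14, Klrd1 -0.0027 ± 0.10, Slamf7 -0.24 ± 0.16 and the adaptor Tyrobp -0.13 ± 0.10. Without ptaquiloside 19 of 25 were higher (median 0.12), and with it 8 of 25 (median -0.13). NK effector genes were higher in 12 of 18 members, with a median of 0.11. For these genes it was 15 of 18 and 0.22 without ptaquiloside, and 5 of 18 and -0.05 with it. In each direction 1 effector gene had an unadjusted p under 0.05, against 3.76% of all genes higher and 2.95% lower. Ly49 receptors were higher in 14 of 16 members, with a median of 0.14. The NK transcription factors were higher in 13 of 18 members with a median of 0.05.

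Most lymphocyte markers had opposite signs in the 2 arms, where the median over all genes was 0.013 without ptaquiloside and 0.0044 with it. B cell genes were lower with selenium in 17 of 18 members among mice without ptaquiloside, with a median of -0.86, and higher in 17 of 18 among mice with it, with a median of 0.63. The median over both arms was -0.23, and it ranged from -0.45 without ptaquiloside mouse 5 to 0.0025 without control mouse 4. It was -0.02 without control mouse 5, -0.04 without selenium mouse 1, -0.11 without ptaquiloside mouse 1 and -0.39 without ptaquiloside and selenium mouse 3, and -0.08 with normexp; without slides 1, 2, 3 and 4 it was -0.0027, -0.40, -0.43 and 0.0025. Ms4a1, the CD20 antigen, had mean levels of 2.86 ± 0.42 (SD, n = 5) in control, 1.72 ± 1.02 (n = 5) with selenium, 1.97 ± 1.36 (n = 4) with ptaquiloside and 2.70 ± 1.19 (n = 5) with both compounds. The SDs of 3 of the 4 groups were close to the differences between their means. Cd79b, a signalling chain of the B cell receptor, gave -0.99 ± 0.52 without ptaquiloside and 0.39 ± 0.56 with it. Pax5, the B lineage factor, gave -0.99 ± 0.21 and 0.07 ± 0.23, and Cd79a and Cd37 gave -0.06 ± 0.29 and 0.19 ± 0.13 over both arms. Limma's adjusted p for the difference between the arms was 0.971 for Ms4a1, Cd79b and Pax5. T cell markers were higher in 1 of 13 members without ptaquiloside and in 11 of 13 with it, with medians of -0.34 and 0.37.

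**Figure D5:**
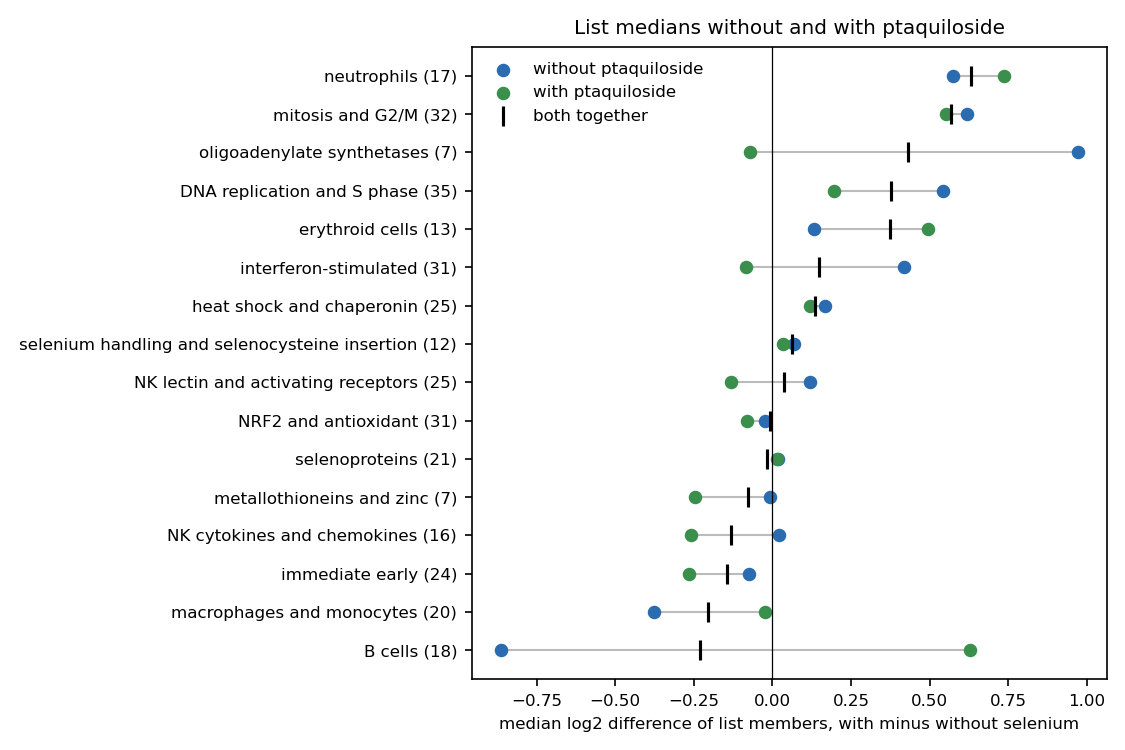
Median log2 difference of the members of 16 gene lists, with minus without selenium, in mice without ptaquiloside (blue), in mice with it (green) and over both (black bar), with the number of tested members in brackets. The B cell list lies at -0.86 and 0.63 and the oligoadenylate synthetases at 0.97 and -0.07, while the mitosis and neutrophil lists lie at similar values in both arms. The S phase list lies at 0.54 and 0.20.

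Tested within each arm, 0 genes passed an adjusted p of 0.05 by limma without ptaquiloside (lowest 0.0671) and 0 with it (lowest 0.925), with 946 (5.42%) and 789 (4.52%) at an unadjusted p under 0.05. The arms use separate arrays, and across genes their differences had a Pearson r of -0.03, with the same sign for 50.5% of genes, which are not independent replicates. The interaction, which asks whether the selenium difference depends on ptaquiloside, called 0 genes (lowest adjusted p 0.478), with 726 (4.16%) at an unadjusted p under 0.05.

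The 5 genes with the smallest interaction p were Hic1 and 4 transcripts known by accession. Hic1, a transcriptional repressor, had mean levels of 1.10 ± 0.85 (SD, n = 5) in control, 2.99 ± 0.44 (n = 5) with selenium, 2.34 ± 0.79 (n = 4) with ptaquiloside and 2.19 ± 0.55 (n = 5) with both. Its difference was 1.88 ± 0.26 without ptaquiloside, with limma's adjusted p at 0.0671, and 0.03 ± 0.28 with it. AK036773 gave -1.13 ± 0.25 and 1.13 ± 0.27, with opposite signs in the arms. AK042175 gave -1.64 ± 0.32 and 0.76 ± 0.35 but was well above background on 3 of 10 arrays with selenium and 3 of 9 without. AK035254 gave -0.79 ± 0.21 and 0.73 ± 0.23, and AK084643 -0.57 ± 0.13 and 0.37 ± 0.15. Limma's adjusted p for the interaction was 0.478 for AK036773 and 0.971 for the other 4.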

How the data were processed

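RNA of NK cells from 20 mice was hybridised to single-colour Agilent arrays, 1 per mouse, and 19 were used. The deposited scanner files, made with Agilent Feature Extraction 9.5.3.1 per the submitters' processing notes, hold a background-subtracted intensity per spot, not scaled between arrays; flag and name columns are of unit other, per the file headers. Log2 intensity minus the 75th percentile of non-control spots was computed, outlier spots were left out, and spots of a probe were averaged. Probes well above background on 5 or more of 20 arrays were kept, and the brightest probe stood for a gene, which gave 17464 genes, 17331 of them with values on all 19 arrays (273 values missing). Of 41174 probes 25253 were named through accessions in RefSeq's gene table and 15921 kept the file's name. Probe coordinates are mm9 (NCBI37), per the file headers.

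Limma 3.58.1 (R 4.3.3, data.table package, version 1.17.8) fitted selenium, ptaquiloside and mouse number, which is also the slide, with moderated two-sided tests; p-values of all genes tested were adjusted by the Benjamini-Hochberg method, with a threshold of 0.05. Arrays of the same number in different groups deviated together, with a median correlation of 0.43 (-0.34 to 0.71; over 0.1 in 24 of 27 pairs). The procedure was tested on simulated data. Members, the 36 gene lists and the alternatives were chosen with earlier results of these data known. Named are the 12 genes with the smallest p in each direction, the first 4 tested and the 2 smallest-p members of each list described in detail, the 5 genes with the smallest interaction p, and Mt1 and Mt2. A few genes that this rule names are not reported here. Of the other 115 genes 35 had several tested probes, and in 3 of these (Klrk1, Mtf1 and Sepsecs) a probe had the other sign.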

Additional observations from a re-analysis of the deposited data

Results flagged for a closer look

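In 19 of 262 groups checked, 1 array stood apart from the rest of its group, by the gap to its nearest neighbour against the range of the group; chance gives this in about 1 in 20 groups. Values are log2 levels. Among the 9 arrays without selenium, ptaquiloside mouse 3 stood apart for Oas1a (-0.89, nearest array 0.10), Tnf (6.08), Ifit1 (0.22), Ifit2 (-1.17) and Lyz2 (7.87). Ptaquiloside mouse 1 stood apart for Kifc1 (-1.06), Kcnj2 (-3.00), Slamf7 (0.59) and Secisbp2 (-0.71). Single arrays stood apart for Sowahc (control mouse 1, 0.94), Ms4a1 (ptaquiloside mouse 5, 0.14) and the erythroid list (control mouse 2, 0.82).

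Among the 10 arrays with selenium, ptaquiloside and selenium mouse 5, the dimmest of the 19, stood apart for Ncr1 (-0.24, nearest array 1.01), Ftl1 (4.84), Junb (9.45) and Secisbp2 (-0.84). Selenium mouse 2 stood apart for Klrk1 (3.75), Klrd1 (5.75) and the list of NK lectin and activating receptors (0.59).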

How the results depend on the processing

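The count of genes at an unadjusted p under 0.05, 1172, was 673 without the replicate block, 653 with all 20 arrays and 417 with normexp. It was 2088 with array weights and 296 with the t-test on unscaled values. When an array or slide was left out it ran from 649 (without slide 1) to 2127 (without selenium mouse 5). The number called for the selenium effect was 0 to 1: AK039522 gave -1.23 without ptaquiloside mouse 5 (limma, adjusted p 0.0109) and -1.26 without slide 5 (0.00561), against -0.93 (0.654) with all 19. Without ptaquiloside the number called was 3 where probes had to be well above background on all 19 arrays: Ccno at 1.12 (limma, adjusted p 0.0394), Hic1 at 1.88 (0.0160) and Spint1 at 2.39 (0.0348), for which the smaller number of genes tested enters the adjustment. It was 0 to 3 with an array or slide left out, with calls without ptaquiloside mouse 3, slide 1 or selenium mouse 1. The interaction called 0 to 1, AK036773 at 2.44 (adjusted p 0.0174) without ptaquiloside and selenium mouse 4. With ptaquiloside the number stayed at 0.

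Of 115 named genes 84 kept their sign under all 24 settings that left out an array or slide and all 10 others, and 31 did not; the cause was not tested. With all 20 arrays Adgre1 turned to 0.0091, Ccl4 to 0.053, Ccl5 to -0.11, Dusp1 to 0.0063, Fos to 0.088, Isg15 to 0.017, Klrd1 to 0.18, Mt2 to -0.0100, Mtf1 to 0.27, Ncr1 to 0.16, Nfe2l2 to 0.16, Secisbp2 to 0.12 and Sepsecs to -0.16. Without the replicate block Adgre1 was 0.0050, Mt2 -0.12 and Nfe2l2 0.0025. With normexp AK035254 was 0.014, AK036773 0.013, AK084643 0.0017, Alas2 0.010, Ccl5 -0.016, Cd79a 0.030, Mt4 0.0062 and Pax5 0.0047. With array weights Alas2 was 0.32, Isg15 0.00077 and Ncr1 0.12. With the mean of all probes Klrk1 was -0.062, Mtf1 0.15 and Sepsecs -0.11, and with median centring Ccl5 was -0.0021. Without control mouse 1 and ptaquiloside and selenium mouse 5, an alternative chosen after seeing the data, Ccl5 was -0.012, Klrd1 0.025, Ncr1 0.18 and Secisbp2 0.0999.

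Leaving out an array or slide gave both signs for 25 genes: AK035254 -0.30 to 0.041, AK036773 -0.25 to 0.10, Adgre1 -0.19 to 0.064, Alas2 -0.57 to 0.35, Ccl4 -0.26 to 0.10, Ccl5 -0.047 to 0.086, Cd79a -0.27 to 0.0998, Fosb -0.40 to 0.085, Gclm -0.059 to 0.37, Gpx1 -0.010 to 0.19, Hba-a1 -0.69 to 0.11, Ifit1 -0.42 to 0.0043, Isg15 -0.17 to 0.18, Klrd1 -0.072 to 0.049, Ms4a1 -0.44 to 0.15, Mt1 -0.24 to 0.17, Mt2 -0.14 to 0.26, Mt3 -0.11 to 0.037, Mt4 -0.18 to 0.014, Ncr1 -0.17 to 0.14, Nfe2l2 -0.32 to 0.043, Oasl1 -0.37 to 0.049, Pstk -0.0063 to 0.097, Secisbp2 -0.15 to 0.046 and Sepsecs -0.0019 to 0.13. The alternative on the authors' deposited table of processed values was not run. Dim probes, such as those of Ticrr, Dpys, Kcnj2 and AK042175, are limited by signal over background.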

Other observations

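The lists below are not described in the report. For comparison, the median over all genes was 0.013 without ptaquiloside and 0.0044 with it. In the aryl hydrocarbon response list, 5 genes were tested, with a median log2 difference of 0.38; the repressor Ahrr (0.96 ± 0.33) and Nqo1 were higher and the receptor Ahr (-0.24 ± 0.10) lower at an unadjusted p under 0.05. Its median was 0.93 without ptaquiloside and -0.02 with it, and over both 0.12 where probes had to be well above background on all 19 arrays. Interferon gamma and antigen presentation genes were higher in 16 of 18 members without ptaquiloside and in 4 of 18 with it, with medians of 0.27 and -0.14. Plasma cell markers were higher in 6 of 8 and 0 of 8 members, with medians of 0.26 and -0.24. Genes of ribosome biogenesis and other MYC targets were higher with selenium in 18 of 25 members, with a median log2 difference of 0.08. Of these 5 had an unadjusted p under 0.05, against 3.76% of all genes. That count of 5 was 1 without the replicate block, 2 with normexp and 9 with array weights. It was 3 with median centring or without control mouse 4, ptaquiloside and selenium mouse 3, or slide 1, 3 or 4. Oxidative phosphorylation genes were higher in 20 of 24 members with a median of 0.07, and in 21 of 24 without ptaquiloside against 11 of 24 with it. Genes of the unfolded protein and amino acid response were higher in 20 of 25 members without ptaquiloside, with a median of 0.21, and in 7 of 25 with it, with a median of -0.12. Platelet and megakaryocyte markers were higher in 12 of 13 members without ptaquiloside and in 0 of 13 with it, with medians of 0.16 and -0.18. Basophil and mast cell markers were lower in 10 of 12 members, with a median of -0.18; 8 of 12 were higher without ptaquiloside (median 0.05) and 1 of 12 with it (median -0.39). Over both arms, targets of p53 (12 of 26 higher, median -0.02), glycolysis (7 of 15, -0.03) and sterol synthesis genes (8 of 19, -0.08) had small medians. So did genes of NK maturation (15 of 22, 0.07), interleukin receptors (16 of 27, 0.01), dendritic cells (6 of 15, -0.07), stromal cells (6 of 8, 0.07) and other innate lymphoid cells (5 of 9, 0.03). Some of these had opposite signs in the arms. Targets of p53 were higher in 18 of 26 members without ptaquiloside (median 0.07) and 8 of 26 with it (-0.13). For interleukin receptors this was 21 of 27 (0.15) and 11 of 27 (-0.07). For dendritic cells it was 6 of 15 (-0.23) and 8 of 15 (0.04), and for other innate lymphoid cells 3 of 9 (-0.05) and 6 of 9 (0.11).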
